A study of Mus musculus with 6 samples.

Results

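The nuclear genes of the respiratory chain and ATP synthase were followed in liver RNA from mice on a diet lacking methionine and choline (MCD). Members were the protein-coding genes whose symbols begin with Nduf (followed by A, B, C, S or V and a number), Sdha to Sdhd, Uqcr, Cox4 to Cox8 (followed by a letter a to c) or Atp5, and which had at least 100 reads over the 6 libraries. This gave 80 of 41388 genes: 37 of complex I, 4 of complex II, 8 of complex III, 14 of complex IV and 17 of complex V. Of 82 matching genes, Cox8c and Cox7b2 had 0 reads in every pool and were left out. The symbols leave out a few subunits with other names, such as Cox4i1, and 10 processed pseudogenes that matched were not members. The members lay on 19 chromosomes, with 8 of them on chromosome 7.

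Livers came from male C57BL/6 mice aged 12 to 16 weeks. *Mttp-IKO* mice were *Mttp* f/f Villin Cre ER T2 animals given tamoxifen for 5 days, and the controls, which the labels call wild type, were described in the methods as littermates given vehicle. The Villin promoter drives the recombinase in the intestinal epithelium, so the deleted gene, which encodes a protein needed to assemble chylomicrons, was not targeted in the liver that was sequenced. Both groups ate the MCD diet for 3 weeks, starting 3 weeks after injection. Tissues of both groups were taken after a fast of at least 4 h. Each group had 3 libraries (n = 3), each a pool of RNA from 3 to 4 mice, and pools vary less than single mice would.

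Oxidative phosphorylation passes electrons from NADH through complex I, or from succinate through complex II, to complex III, cytochrome c and complex IV, and the proton gradient so built drives ATP synthesis by complex V. Apart from complex II, each complex has a small part encoded in mitochondrial DNA, while most of its subunits are encoded in the nucleus and imported. The liver is rich in mitochondria and oxidizes large amounts of fatty acid. Many of the nuclear subunits are encoded by short mRNAs, and many of their genes have binding sites for NRF1 or for GABP, an ETS family factor, near the transcription start.

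Start sites of these genes were described by RefSeq windows of 300 bases (250 before to 50 after the start, GRCm38.p6). The windows were searched on both strands for the palindromic NRF1 motif and for the ETS core CCGGAAG, whose reverse complement is CTTCCGG. The 10 letters of the NRF1 motif are the longer run of capitals in the windows of Cox6a1 and Atp5k. Of the 80 members, 67 matched an entry. The NRF1 motif was in 5 of these 67 (7.46%: Ndufa11, Uqcrc1, Cox6a1, Atp5g2 and Atp5k) and in 257 of 17492 protein-coding genes (1.47%). The ETS core was in 16 members (23.9%) and in 2265 protein-coding genes (12.9%). By complex, the ETS core was in 4 of 32 matched genes of complex I, 2 of 3 of complex II, 2 of 5 of complex III, 3 of 12 of complex IV and 5 of 15 of complex V. A match is a description of these letters and not a bound site, and a window without one says only that these letters are not in it. The windows of 4 members are printed 5′ to 3′ in the direction of the gene, with both motifs in capitals: Cox6a1 and Cox8a, the liver isoforms with the highest levels in complex IV, Cox8b, the muscle isoform that stands against Cox8a, and Atp5k, the complex V member with the lowest fold change.
Cox6a1, chr5:115348909-115349208, minus strand: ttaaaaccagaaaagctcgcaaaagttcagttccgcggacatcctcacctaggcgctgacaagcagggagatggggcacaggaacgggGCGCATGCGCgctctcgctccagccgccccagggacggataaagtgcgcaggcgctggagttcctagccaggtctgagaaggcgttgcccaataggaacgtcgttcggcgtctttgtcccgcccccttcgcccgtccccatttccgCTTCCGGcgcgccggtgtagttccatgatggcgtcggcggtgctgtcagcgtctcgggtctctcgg
Cox8a, chr19:7217567-7217866, minus strand: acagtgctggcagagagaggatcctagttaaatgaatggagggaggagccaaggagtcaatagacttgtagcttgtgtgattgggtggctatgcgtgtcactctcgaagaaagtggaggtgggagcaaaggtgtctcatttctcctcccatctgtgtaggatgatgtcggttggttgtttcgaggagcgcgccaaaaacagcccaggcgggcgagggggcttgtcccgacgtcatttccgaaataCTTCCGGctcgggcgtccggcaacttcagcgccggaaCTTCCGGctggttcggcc
Cox8b, chr7:140900397-140900696, minus strand: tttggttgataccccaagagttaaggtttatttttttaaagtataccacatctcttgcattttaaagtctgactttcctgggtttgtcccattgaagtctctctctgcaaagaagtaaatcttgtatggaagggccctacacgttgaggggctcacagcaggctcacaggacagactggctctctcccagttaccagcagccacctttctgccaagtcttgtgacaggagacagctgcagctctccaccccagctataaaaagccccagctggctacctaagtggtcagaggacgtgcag
Atp5k, chr5:108434350-108434649, minus strand: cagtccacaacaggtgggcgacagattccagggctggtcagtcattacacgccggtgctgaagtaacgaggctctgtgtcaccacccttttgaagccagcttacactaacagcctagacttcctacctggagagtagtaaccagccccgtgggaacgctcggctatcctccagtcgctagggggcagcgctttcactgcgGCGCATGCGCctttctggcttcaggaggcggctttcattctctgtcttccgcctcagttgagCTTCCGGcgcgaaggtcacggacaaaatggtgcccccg
Cox6a1 and Atp5k hold both motifs, as no other matched member does, Cox8a holds the ETS core only, and Cox8b holds neither.

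The libraries held 25271585 to 36238734 reads on genes, and a gene with 0 reads may have had as many as 0.0744 to 0.126 CPM, depending on the library (3 reads, for counting error only). CPM here means reads relative to the library size scaled by TMM. Hepatocyte genes dominated every pool, with 10 markers summing to 69209 to 105782 CPM in the controls and 135150 to 183977 CPM in *Mttp-IKO* pools. Of these 10, 0 were called by edgeR in either direction. The largest was Alb (40131 to 69006 CPM in the controls and 84786 to 132236 CPM in *Mttp-IKO* pools). Ttr went the other way, with 2808 to 3828 CPM in the controls and 1466 to 2740 CPM in *Mttp-IKO* pools. Summed markers of stellate cells (930 to 1719 against 478 to 527 CPM, 6 of 9 lower by edgeR) were lower in every *Mttp-IKO* pool than in any control. Those of macrophages (886 to 1791 against 537 to 897 CPM, 4 of 12 lower) overlapped between the groups. Among them Marco was higher in *Mttp-IKO* pools 1 and 2 (253 and 115 CPM against 40.5 to 65.0 CPM in the controls). The part of these cell types in the results below was not tested. In bulk RNA, fewer cells of a type and less RNA per cell cannot be told apart. One library stood apart. Small noncoding RNAs took 0.29% of the reads in *Mttp-IKO* pool 3, 2.13% and 1.92% in pools 1 and 2, and 2.75% to 3.51% in the controls. Coding genes with a main mRNA under 700 nt took 0.843% in pool 3, 2.35% and 2.24% in pools 1 and 2, and 2.36% to 2.44% in the controls. Pools 1 and 2 were thus also below every control on both measures, but by less. The main comparisons are therefore given with and without that pool, and some single genes without it only.

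In control livers the mRNAs of the complexes differed in level. Per kilobase of main mRNA, the median of the control means was 63.3 CPM for complex I, 91.9 for complex II, 134.3 for complex III, 133.5 for complex IV and 118 for complex V. The highest level of all belonged to Cox6a1, a subunit of cytochrome c oxidase, at 743 CPM per kilobase, and the next to Cox8a at 528. Atp5b, the catalytic beta subunit of ATP synthase, reached 478 CPM per kilobase and was the highest of complex V, while Uqcr10 (305), Ndufa4 (233) and Sdhb (114) led complexes III, I and II. The lowest were Cox6b2, a testis isoform, at 1.85, Ndufa4l2, a paralog of Ndufa4, at 2.46, and Atp5s at 2.81 CPM per kilobase. These levels depend on the transcript taken for the length. For Atp5g1 a main mRNA of 4715 nt gives only 32.1 CPM per kilobase, where its paralogs Atp5g3 and Atp5g2 had 363 and 189.

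Between genotypes, no member passed the test. Of 79 members tested by edgeR's quasi-likelihood test, 0 had a Benjamini-Hochberg adjusted p under 0.05, beside 4.01% of the 17287 genes tested (3.09% lower and 0.92% higher). An unadjusted p under 0.05 was seen for 3 members (Cox6a2, Cox6b2 and Cox7a1) and for 23% of all genes, while DESeq2 called 1 member, Cox6a2, beside 11.5% of genes, and edgeR without the filter on low counts called Cox6a2 and Cox8b, beside 3.56%. Cox8b fell below the filter on low counts and was not tested. The fitted log2 fold changes nevertheless lay to one side: 73 of 79 were below 0, with a median of -0.31 against 0.01 for all genes. The median standard error of a member was 0.36, larger than that median. By complex the median was -0.37 for I, -0.12 for II, -0.22 for III, -0.43 for IV and -0.29 for V, and every tested member of complexes II, IV and V was below 0.

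The 3 *Mttp-IKO* pools all lay below the 3 control pools in 11 members (13.75%), beside 16.5% of all genes. They were Ndufa9, Ndufa13, Ndufb7, Ndufs4 and Ndufs8 of complex I, Cox6b1, Cox6b2, Cox7a2 and Cox8b of complex IV, and Atp5j2 and Atp5k of complex V. In 0 members were all 3 above the controls, beside 14.5% of genes. With 3 pools in each group, the smallest two-sided p of an exact permutation test is 0.1.

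The shift to lower values came from 1 library. *Mttp-IKO* pool 3 was the lowest of the 6 pools in 74 of 80 members, beside 29.4% of all genes. The exceptions were Ndufb2, Ndufs1, Uqcrc2, Cox7a1, Cox8b and Atp5s. The median member had in that pool 34.2% of its mean control level, while the median of all tested genes was 96.3%. In *Mttp-IKO* pools 1 and 2 together the median member had 100.3% of control. On the log2 scale, the median difference of 79 members from their mean in the controls was -0.17, 0.13 and 0.03 in control pools 1 to 3, -0.07 and 0.10 in *Mttp-IKO* pools 1 and 2, and -1.51 in pool 3. Control pools 1 to 3 and *Mttp-IKO* pools 1 and 2 thus lay close together, and pool 3 far below them.

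**Figure D1:**
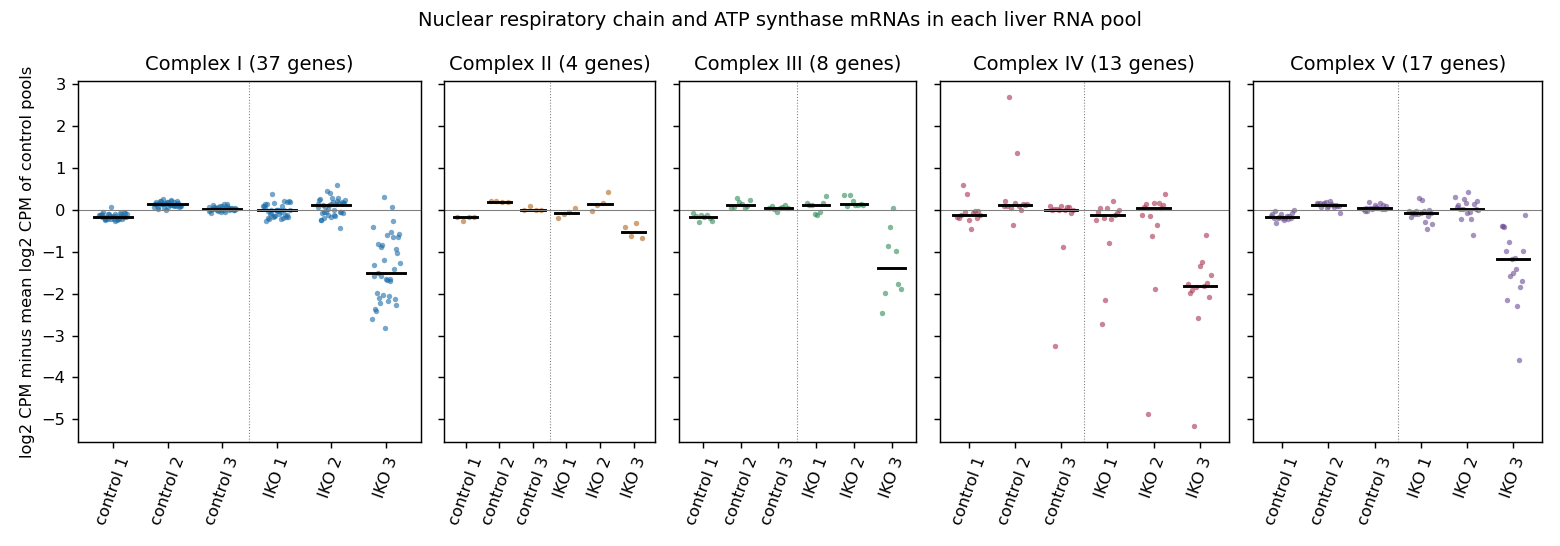
Level of each member in each pool, as log2 CPM minus the mean log2 CPM of the 3 control pools (vertical axis), for the 6 pools (horizontal axis) and the 5 complexes (panels). Each point is a gene with reads in every pool and each black line the median of a complex, which in IKO 3 is -1.51 for complex I, -0.53 for II, -1.38 for III, -1.81 for IV and -1.17 for V.

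The complexes stood at different distances from control in *Mttp-IKO* pool 3. The median member had 69.1% of control in complex II, 44.3% in complex V, 39.7% in complex III, 34.8% in complex I and 28.2% in complex IV. The summed CPM of each complex gave the same order, with 71.3% of control for complex II, 59.4% for V, 48.6% for III, 43.1% for I and 30.3% for IV. In *Mttp-IKO* pools 1 and 2 these sums were 91.8% to 112.5% of control, and in the control pools 86.6% to 113.8%.

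The complexes also differed in the length of their mRNAs. The median main mRNA was 2066 nt in complex II, 955 nt in III, 861 nt in I, 838 nt in V and 595 nt in IV. Over 79 members with reads in every pool, Spearman's rho between mRNA length and the log2 ratio to control was 0.59 (Pearson's r 0.50) in *Mttp-IKO* pool 3, -0.05 in pool 1 and 0.18 in pool 2. These are correlations across genes of 1 library, which are not independent replicates. The 35 members with an mRNA under 700 nt had a median of 27.7% of control in pool 3, the 29 of 700 to under 1500 nt had 49.1%, and the 16 of 1500 nt or more had 74.4%. Coding genes at large followed the same order with higher values, with 34.8%, 61.8% and 102% in the same 3 classes. Whether length or what goes with it accounts for the low members was not tested. With the length trend of each pool removed, the member median was -0.16 (all genes 0.12) and 0 members were called.

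**Figure D2:**
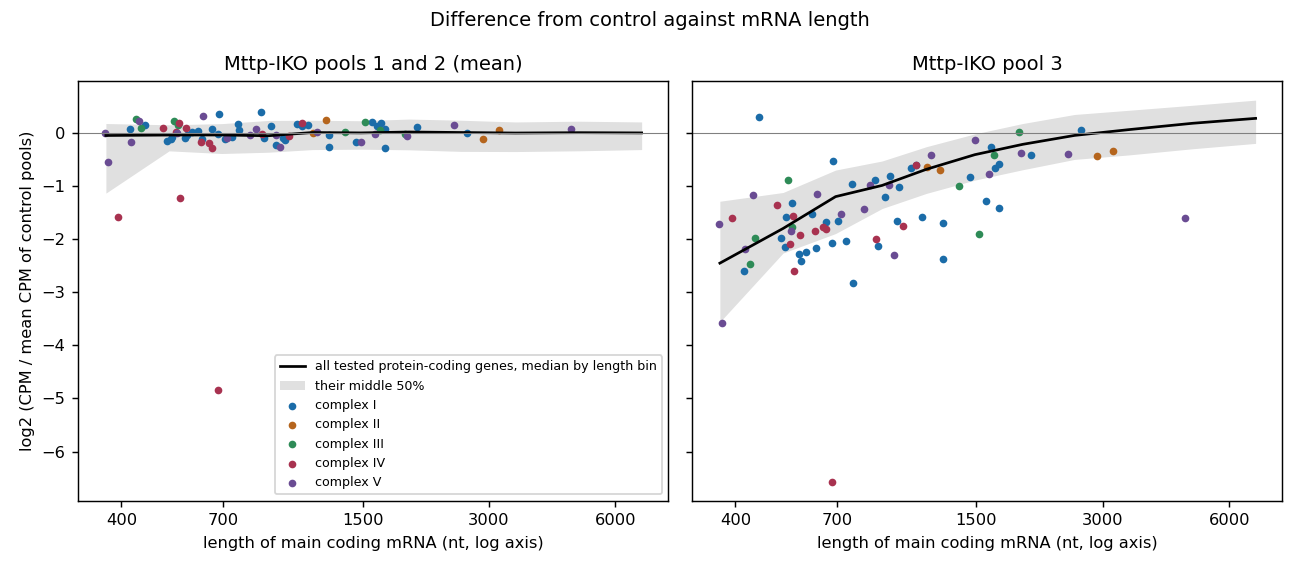
Log2 ratio of *Mttp-IKO* to mean control CPM (vertical axis) against the length of the main coding mRNA (horizontal axis, log scale) for 79 members, coloured by complex, for the mean of pools 1 and 2 (left) and for pool 3 (right). The black line and grey band are the median and middle 50% of tested coding genes with a control mean over 1 CPM. On the left the median line stays near 0, and on the right it rises from -2.45 for mRNAs of 300 to 450 nt to 0.27 for those of 6000 to 8000 nt, with most members on it or below it.

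Without *Mttp-IKO* pool 3 (2 pools against 3), 0 of 80 members passed the edgeR test, beside 4.84% of 17854 genes. An unadjusted p under 0.05 was seen for 5 members (Ndufa8, Cox6a2, Cox7a2, Cox8b and Atp5k) and for 26.2% of genes. The values now lay on both sides, with 38 members below 0 and 42 above, and the median was 0.01. The median standard error was 0.14 for members and 0.22 for all genes, and 67 of 80 members (83.75%) were within 0.25 log2 of no difference, compared with 42.4% of all genes tested there. The median was 0.02 for complex I, 0.03 for II, 0.12 for III, -0.11 for IV and -0.01 for V. Both remaining *Mttp-IKO* pools lay above all controls in 12 members, beside 22.4% of genes, and below all controls in the same 11 as above, beside 22.9%.

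Complex I takes electrons from NADH and passes them to ubiquinone. Ndufv1, the core subunit that binds NADH and FMN, read 98.7, 112.2 and 104.8 CPM in control pools 1 to 3 and 122, 118 and 66.4 CPM in *Mttp-IKO* pools 1 to 3. Pools 1 and 2 were above every control and pool 3 below every control, and the fitted log2 fold change was -0.04 (SE 0.24) with all pools and 0.19 (SE 0.11) without pool 3. Ndufs1, the largest core subunit, which carries iron-sulfur clusters, read 53.2, 71.0 and 63.7 CPM in the controls and 54.2, 71.6 and 65.2 CPM in *Mttp-IKO* pools. Its groups overlapped, and it was among the 6 members not lowest in pool 3. Its main mRNA of 2661 nt is the longest of complex I.

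The accessory subunit Ndufa13, known also as GRIM-19, had the lowest fold change of the complex, with 78.1, 97.2 and 89.3 CPM in the controls and 72.9, 74.4 and 17.1 CPM in *Mttp-IKO* pools. All 3 were below the controls, although pools 1 and 2 by little, and the log2 fold change was -0.68 (SE 0.47, adjusted p = 0.417 by edgeR) with all pools and -0.26 (SE 0.13, adjusted p = 0.253) without pool 3. Ndufa6, an accessory subunit of the LYR family, had 84.0, 104.5 and 97.4 CPM in the controls and 94.2, 99.1 and 20.2 CPM in the *Mttp-IKO* pools, so that only pool 3 left the control range.

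Ndufa8, an accessory subunit of the intermembrane space side, was the complex I member highest above control outside pool 3. It read 59.3, 83.1 and 67.1 CPM in the controls and 89.3, 93.9 and 37.6 CPM in *Mttp-IKO* pools. *Mttp-IKO* pools 1 and 2 were above every control and pool 3 was below every control. The log2 fold change was 0.08 (SE 0.33) with all pools and 0.39 (SE 0.16, adjusted p = 0.171 by edgeR) without pool 3. With control pool 2 left out as well, a choice made after seeing the data, it was 0.53 with an adjusted p of 0.0439, when 12.3% of 17444 genes were called. Ndufa8 was singled out after its values were seen.

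Ndufa4, which was first assigned to complex I and is now placed with complex IV, was the most abundant Nduf mRNA and read 121, 158 and 148 CPM in control and 138, 152 and 49.5 CPM in *Mttp-IKO* pools. Counting it and Ndufa4l2 with complex IV left the complex medians at -0.37 for I and -0.43 for IV. Ndufa4l2, its paralog known as a hypoxia-induced gene, was at 1.91 to 2.63 CPM in control and 1.93, 1.99 and 1.30 CPM in *Mttp-IKO* pools, with a log2 fold change of -0.39 (SE 0.29), and of -0.22 (SE 0.26) without pool 3. Ndufb2, an accessory subunit, had the largest positive value of all members with all pools, 0.20 (SE 0.22; 0.14 without pool 3), from 4.50 to 4.86 CPM in control and 4.16, 6.10 and 5.75 CPM in *Mttp-IKO* pools. Its main mRNA is 455 nt, but the exons counted by the authors span 5628 nt. Whether part of its reads came from longer transcripts was not tested. The lowest complex I member of pool 3 was Ndufb3, an accessory subunit, at 14.1% of control, followed by Ndufa1 at 16.4%, and both were above 100% in pools 1 and 2 together (104% and 105%).

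Complex II oxidizes succinate to fumarate in the tricarboxylic acid cycle and is encoded wholly in the nucleus. Its 4 mRNAs were the nearest to control of the complexes in *Mttp-IKO* pool 3, at 61.9% to 79.4% of control. Sdha, the flavoprotein with the succinate site, read 272, 356 and 306 CPM in the controls and 268, 305 and 231 CPM in *Mttp-IKO* pools, with a log2 fold change of -0.22 (SE 0.19). Sdhb, the iron-sulfur subunit, read 107, 148 and 136 CPM and 121, 141 and 83.5 CPM. Pools 1 and 2 were inside the control range for Sdhb and pool 3 was below it.

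Sdhc and Sdhd encode the membrane anchors of complex II. Sdhc was at 103, 132 and 115 CPM in the controls and 112, 130 and 92.5 CPM in *Mttp-IKO* pools, and Sdhd at 83.3, 106 and 93.1 CPM and 97.2, 125 and 58.4 CPM. Without pool 3 the log2 fold changes of the 4 genes were -0.12 for Sdha, 0.01 for Sdhb, 0.06 for Sdhc and 0.24 for Sdhd, with standard errors of 0.14 to 0.17. With the trend on mRNA length removed the complex II median was 0.01, while that of all genes was 0.12.

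Complex III passes electrons from ubiquinol to cytochrome c. The short mRNAs of Uqcr10 and Uqcr11, small subunits of the complex, stood against those of its large core proteins. Not every member followed that order. In *Mttp-IKO* pool 3 Uqcrq, with a main mRNA of 1521 nt, was at 26.7% of control, and Uqcrb, with 535 nt, at 54.2%. Uqcr10 read 125, 136 and 136 CPM in the controls and 147, 169 and 24.0 CPM in *Mttp-IKO* pools. Pools 1 and 2 were above every control while pool 3 was at 18.2% of control, so the log2 fold change was -0.22 (SE 0.57) with all pools and 0.26 (SE 0.12, adjusted p = 0.228 by edgeR) without pool 3. Uqcr11 likewise read 102, 117 and 120 CPM and 121, 120 and 28.6 CPM.

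Uqcrc1 and Uqcrc2, the core proteins of the matrix side, stayed nearer to control. Uqcrc1 had 231, 288 and 245 CPM in control and 236, 294 and 190 CPM in *Mttp-IKO* pools, and Uqcrc2 had 92.4, 115.6 and 108.8 CPM and 96.0, 113.4 and 107.5 CPM. Pool 3 was at 74.5% of control for Uqcrc1 and at 102% for Uqcrc2, where the groups overlapped in full. Uqcrfs1, the Rieske iron-sulfur protein, read 159, 178 and 180 CPM and 164, 186 and 86.6 CPM, lowest again in pool 3. Without pool 3, 7 of the 8 complex III genes were above 0, with log2 fold changes up to 0.26.

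Complex IV, cytochrome c oxidase, reduces oxygen to water. Cox6a1, the common isoform of subunit VIa, read 389, 453 and 431 CPM in the controls and 434, 468 and 112 CPM in *Mttp-IKO* pools. Cox8a, the common isoform of subunit VIII, read 266, 317 and 287 CPM in control and 287, 375 and 97.7 CPM in *Mttp-IKO* pools. In both, pool 3 stood alone below the controls, at 26.3% and 33.7% of control. Their log2 fold changes were -0.33 (SE 0.46) and -0.20 (SE 0.42) with all pools and 0.09 (SE 0.13) and 0.19 (SE 0.16) without pool 3.

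Cox7a2, the common isoform of subunit VIIa, had the lowest fold change without pool 3 among the common isoforms of complex IV. It read 61.2, 69.6 and 65.0 CPM in the controls and 56.2, 50.5 and 18.5 CPM in *Mttp-IKO* pools, with no overlap. The log2 fold change was -0.65 (SE 0.36, adjusted p = 0.322 by edgeR) with all pools and -0.29 (SE 0.12, adjusted p = 0.170) without pool 3. Cox5a, a subunit of the matrix side, read 96.2, 115 and 114 CPM and 91.0, 98.8 and 31.7 CPM, so that pool 2 overlapped the controls. Cox7a2l, a relative of Cox7a2, read 67.9, 69.6 and 72.5 CPM in control and 81.1, 78.1 and 45.9 CPM in *Mttp-IKO* pools, with pools 1 and 2 above every control. Its log2 fold change without pool 3 was 0.19 (SE 0.10, adjusted p = 0.290 by edgeR).

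The muscle isoforms of complex IV had the largest fold changes of all members, at low levels. Cox6a2, the heart and skeletal muscle isoform of subunit VIa, read 4.49, 19.1 and 0.312 CPM in the controls and 0.451, 0.103 and 0.0839 CPM in *Mttp-IKO* pools. Control pool 2 was far above the others, and control pool 3 was below *Mttp-IKO* pool 1. The log2 fold change was -5.14 (SE 1.36, adjusted p = 0.0761 by edgeR), the lowest adjusted p of the members. It was -3.45 (adjusted p = 0.143) without control pool 2 and -4.81 (adjusted p = 0.130) without *Mttp-IKO* pool 3. Cox8b, the muscle isoform of subunit VIII, had 30, 180 and 5 reads in control pools and 2, 0 and 0 reads in *Mttp-IKO* pools. Cox7a1, the muscle isoform of subunit VIIa, read 1.02, 3.58 and 0.750 CPM in control and 0.806, 0.377 and 0.587 CPM in *Mttp-IKO* pools, with overlap (log2 fold change -1.58, adjusted p = 0.192 by edgeR, -0.60 without control pool 2 and -1.58 without *Mttp-IKO* pool 3).

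All 3 muscle isoforms were highest in control pool 2 and next in control pool 1. The 10 striated muscle genes (Acta1, Ckm, Myh1 and others) summed to 117, 909 and 1.28 CPM in the controls and to 1.77, 1.37 and 1.17 CPM in the *Mttp-IKO* pools, so they took the same first and second place, and their part in the result was not tested. Genes of brown fat, a tissue that also expresses Cox7a1 and Cox8b, were near 0: Ucp1, Cidea and Dio2 summed to at most 0.499 CPM in any pool. Cox6b2, the testis isoform of subunit VIb, did not share that order. It read 1.29, 0.776 and 0.9995 CPM in control and 0.226, 0.652 and 0.168 CPM in *Mttp-IKO* pools, without overlap (log2 fold change -1.53, SE 0.54, adjusted p = 0.148 by edgeR, and -1.22 without *Mttp-IKO* pool 3), from 142 reads in all.

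**Figure D3:**
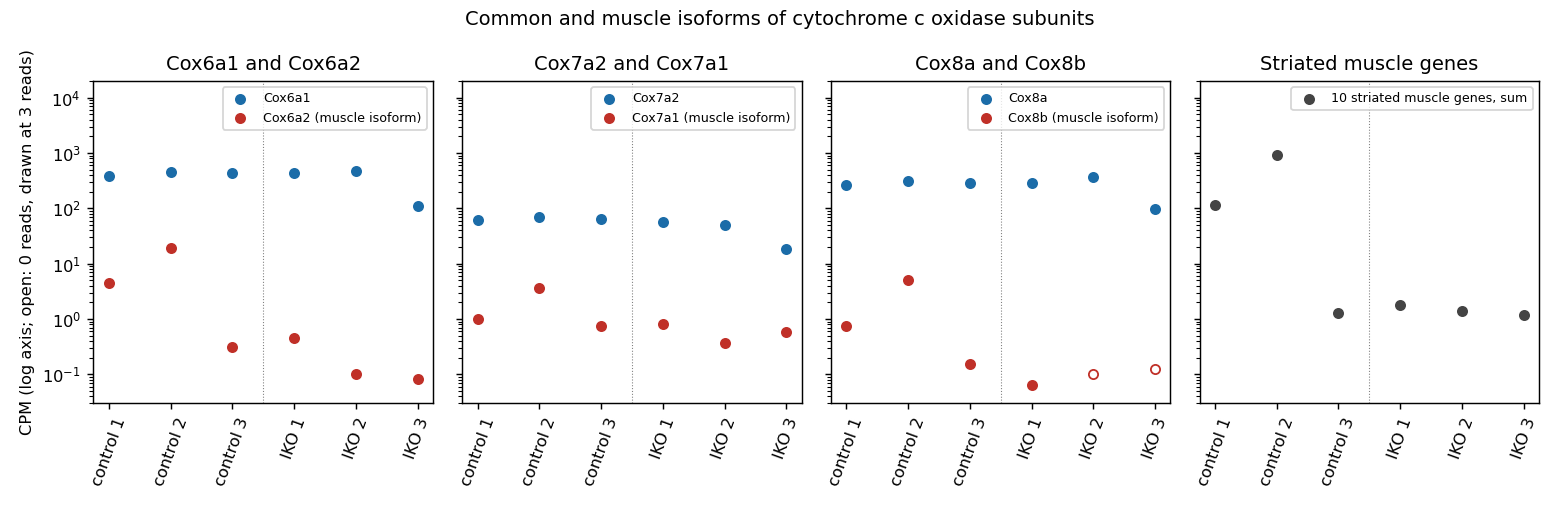
CPM (vertical axis, log scale) in each pool (horizontal axis) of the common (blue) and muscle (red) isoforms of 3 complex IV subunits, and the summed CPM of 10 striated muscle genes (last panel). Open circles mark 0 reads, drawn at the level of 3 reads. The muscle isoforms peak in control 2, where the muscle genes sum to 909 CPM, while the common isoforms are lowest in IKO 3.

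Complex V makes ATP from the proton gradient. In *Mttp-IKO* pool 3 the mRNAs of its catalytic head were nearer to control than the median of the complex. Atp5b, its beta subunit, read 843, 1006 and 898 CPM in the controls and 809, 947 and 702 CPM in *Mttp-IKO* pools, and Atp5a1, its alpha subunit, 653, 808 and 737 CPM and 713, 901 and 554 CPM. Pool 3 was at 76.7% and 75.7% of control, and the log2 fold changes were -0.16 (SE 0.19) and -0.02 (SE 0.22). Without pool 3 they were -0.06 (SE 0.15) and 0.14 (SE 0.16). Of these, Atp5a1 in pool 2 was above every control.

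Atp5g1, Atp5g2 and Atp5g3 encode the same mature c subunit of the rotor ring. Atp5g3, the most abundant, read 226, 275 and 277 CPM in control and 243, 244 and 90.2 CPM in *Mttp-IKO* pools. Atp5g1 read 133, 170 and 152 CPM and 140, 181 and 50.2 CPM. Atp5g2 read 77.6, 86.1 and 86.1 CPM and 101, 92.4 and 36.9 CPM, with pools 1 and 2 above every control. Without pool 3 their log2 fold changes were -0.09, 0.09 and 0.22, with standard errors of 0.11 to 0.16. Since only reads aligned to 1 place were counted, reads shared by paralogs or by processed pseudogenes are missing from such genes.

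Atp5k, which encodes the small subunit e of the membrane part that holds ATP synthase dimers together, had the lowest fold change of complex V. It read 27.8, 34.1 and 36.5 CPM in the controls and 23.6, 21.4 and 2.73 CPM in *Mttp-IKO* pools. All *Mttp-IKO* pools were below all controls, pools 1 and 2 at 68.7% of control together and pool 3 at 8.31%. The log2 fold change was -1.04 (SE 0.61, adjusted p = 0.349 by edgeR) with all pools. Without pool 3 it was -0.54 (SE 0.15, adjusted p = 0.0855), the lowest adjusted p of the members there. With control pool 2 left out too it was -0.52 (adjusted p = 0.0936). Its main mRNA of 371 nt is the second shortest of the tested members of complex V, after Atp5mpl (366 nt), whose level in pools 1 and 2 did not leave the control range (36.0 and 36.7 CPM against 31.5 to 39.2 CPM). Atp5j2, subunit f of the same membrane part, read 101, 123 and 115 CPM in control and 91.4, 96.0 and 23.1 CPM in *Mttp-IKO* pools, also without overlap (log2 fold change -0.27 without pool 3, SE 0.13).

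**Figure D4:**
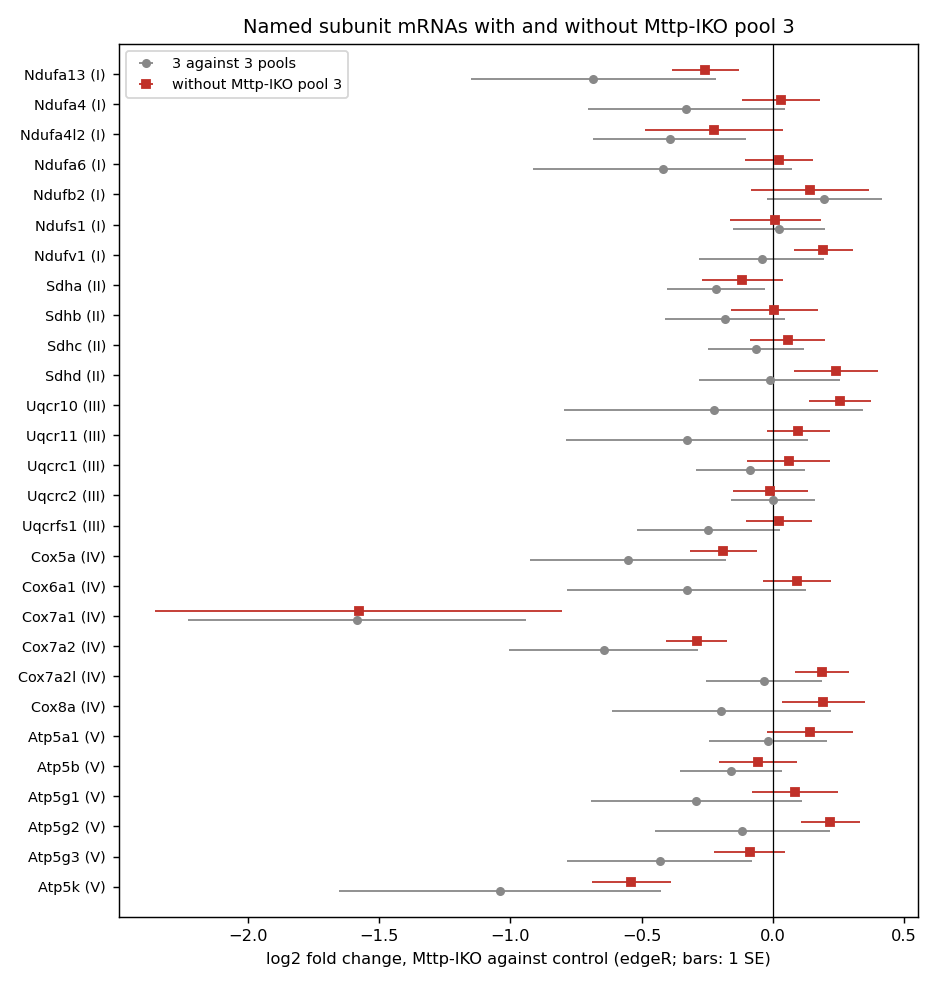
Log2 fold change of *Mttp-IKO* against control (horizontal axis, edgeR, bars of 1 SE) for the named members tested apart from Cox6a2 (vertical axis, complex in brackets), with all 6 pools (grey) and without *Mttp-IKO* pool 3 (red). Most grey points lie left of 0 with wide bars, and most red points lie within 0.25 of 0, with Atp5k at -0.54 and Cox7a1 at -1.58 to the left.

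The genes around the complexes were set beside the members. None of the related lists held a gene called by edgeR with all pools. The 6 subunits and carriers outside the symbols searched had a median log2 fold change of -0.30 (0.02 without *Mttp-IKO* pool 3) and 39.0% of control in that pool. Among them Cox4i1, the common isoform of subunit IV, read 174, 183 and 180 CPM in control and 189, 184 and 72.9 CPM in *Mttp-IKO* pools. The 43 assembly factors had a median of -0.07 (-0.02 without pool 3) and 73.2% of control in pool 3, and the 15 tricarboxylic acid cycle genes -0.03 (0.04 without pool 3) and 80.7%. Both lists have longer main mRNAs, with medians of 1749 and 2636 nt against 786 nt for the members.

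The 15 regulators of mitochondrial genes had a median log2 fold change of 0.15 (0.12 without *Mttp-IKO* pool 3) and 133% of control in that pool. Their main mRNAs are long, with a median of 3656 nt. Ppargc1a, a coactivator that drives mitochondrial genes, read 29.0, 40.6 and 38.1 CPM in the controls and 45.5, 98.5 and 95.7 CPM in *Mttp-IKO* pools. All 3 were above the controls (log2 fold change 1.15, SE 0.30, adjusted p = 0.0724 by edgeR, and 1.01, adjusted p = 0.105, without pool 3), short of the threshold. Pprc1, a related coactivator, was at 32.9 to 37.0 CPM in control and at 49.5, 46.5 and 71.7 CPM in *Mttp-IKO* pools (0.69, adjusted p = 0.0882 by edgeR, and 0.47, adjusted p = 0.0569, without pool 3). Ppargc1b, another coactivator of the list, did not rise in the same way. It read 23.4, 42.9 and 32.5 CPM in control and 14.2, 25.2 and 51.2 CPM in *Mttp-IKO* pools. Its log2 fold change was -0.13 (adjusted p = 0.889 by edgeR), and -0.74 (adjusted p = 0.199) without pool 3. Nrf1 and Gabpa, whose products bind the motifs printed above, had log2 fold changes of 0.29 (adjusted p = 0.306 by edgeR) and 0.22 (adjusted p = 0.550), and without pool 3 of 0.23 (adjusted p = 0.337) and 0.03 (adjusted p = 0.931).

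As a set, the 13 subunit mRNAs encoded in mitochondrial DNA did not share the low values of *Mttp-IKO* pool 3. Their median there was 112% of control, although their median length of 784 nt is near that of the members. Pool 3 was the lowest of the 6 pools in 2 of the 13, mt-Cytb (78.3% of control) and mt-Co2 (81.5%). The median log2 fold change was 0.19 (0.23 without pool 3), with a range from -0.12 (mt-Cytb) to 2.07 (mt-Atp8). These 13 mRNAs are read from long shared precursors of another genome. Among the 13, mt-Nd3, a subunit of complex I, read 12.2, 14.3 and 14.1 CPM in control and 19.99, 27.1 and 20.4 CPM in *Mttp-IKO* pools. The log2 fold change was 0.74 (adjusted p = 0.0619 by edgeR), and 0.80 (adjusted p = 0.0475) without pool 3. The mRNA mt-Atp8 had a larger value at a lower level, from 0.437 to 1.56 CPM in control. Its log2 fold change was 2.07 (adjusted p = 0.0615 by edgeR), and 2.31 (adjusted p = 0.0506) without pool 3.

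Ribosomal protein genes were low in *Mttp-IKO* pool 3 too. The 91 genes of the cytosolic ribosome (median main mRNA 799 nt) had 41.4% of control there and the 76 of the mitochondrial ribosome (1284 nt) 52.9%. In *Mttp-IKO* pools 1 and 2 the members and the mitochondrial ribosome were at 100.3% and 103% of control, and the cytosolic ribosome at 120%. Without pool 3, 78 of 91 cytosolic ribosomal protein genes were above 0, with a median log2 fold change of 0.27 (-0.09 with all pools), against 42 of 80 members with a median of 0.01. The mitochondrial ribosome had a median of 0.05 (-0.16 with all pools).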

How the data were processed

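Liver RNA was measured by RNA-Seq after depletion of ribosomal RNA in 3 control and 3 *Mttp-IKO* pools. The authors deposited read counts per gene (STAR 2.5.1a, Ensembl release 76, GRCm38, featureCounts 1.4.6-p5, uniquely aligned unambiguous reads; use of strand is not stated). The authors also deposited CPM, which are relative to the library size, and RPKM, which are CPM per kilobase of exons. Only the counts were tested. A series table gave symbols and biotypes for 40481 genes, with 276 repeated lines that were dropped. No 2 libraries were alike within sampling noise.

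Groups came from the labels. Genes were kept by filterByExpr of edgeR 4.0.16 in R 4.3.3 (minimum count 10, minimum total 15), scaled by TMM (factors 0.898 to 1.11) and tested with glmQLFit and glmQLFTest, with Benjamini-Hochberg adjustment over 17287 genes at 0.05. The code was tested on simulated counts. P-values set the difference between groups against the spread between pools, not between single mice. The methods name no differential expression tool, so this test was chosen here. The alternatives were DESeq2 1.42.0 (Wald test and size factors), total counts, no filter, coding genes only, a replicate block, removal of length trends (loess, span 0.3) and leaving out pools. Lengths of main coding mRNAs came from GENCODE M21 (APPRIS principal transcript, lowest support level). Levels per kilobase are CPM over that length.

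Named members were, per complex, the highest 2 by mean RPKM, the highest and the lowest fold change, any called member, and a preset list of catalytic subunits and tissue isoforms, 30 in all. Ndufa1, Ndufa8, Ndufb3, Uqcrb, Uqcrq, Cox6b2, Atp5mpl, Atp5j2 and Atp5s were described beyond that rule after their values were seen, as were related genes. The members, gene lists and tests were chosen with earlier results of these data known.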

Additional observations from a re-analysis of the deposited data

How the results depend on the processing

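No member was called with DESeq2's size factors, total counts, coding genes only, or either length trend removed. Members called lower numbered 1 with the DESeq2 Wald test (Cox6a2, adjusted p = 0.00743), 2 without the count filter (Cox6a2, adjusted p = 0.0291, and Cox8b, adjusted p = 0.0285, by edgeR), 1 with a replicate block and 1 with that block and the length trend removed (Cox6a2, adjusted p = 0.0460 and 0.0458). Members called higher numbered 1 (Ndufa8) without control pool 2 and *Mttp-IKO* pool 3 together, and 0 under the other settings. The cause of these changes was not tested. Over all genes, 1995 were called by DESeq2, 990 without the filter, 1019 with total counts and 2146 without both pools, against 694. Pools of the same number had deviations correlated at 0.139, 0.112 and 0.00698, so the numbers were not taken to pair the samples, and the block gave a member median of -0.46 and 592 calls over all genes (3.42%, or 4.61% with the length trend removed as well).

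Total counts gave a member median of -0.49, but moved the median of all genes to -0.17, and removing the length trend moved it to 0.12. The member median was -0.16 with that trend removed. With 1 pool left out at a time, the member median ranged from -0.58 (without *Mttp-IKO* pool 2) to 0.01 (without *Mttp-IKO* pool 3), members called lower and higher stayed at 0, and genes called fell to 24 and 21 without control pools 1 and 3, to 55 and 0 without *Mttp-IKO* pools 1 and 2, and were 892 and 864 without control pool 2 and *Mttp-IKO* pool 3. The complex medians then ranged from -0.60 to 0.02 (I), -0.30 to 0.03 (II), -0.43 to 0.12 (III), -0.78 to -0.11 (IV) and -0.47 to -0.01 (V). Both choices of a length trend on main mRNAs and of leaving out 2 pools together were made after seeing the data. The main mRNA is a choice of 1 transcript, and is long for Atp5g1 and Ndufa13. Depth limits the muscle isoforms, which had few reads in *Mttp-IKO* pools.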
